A study of Mus musculus with 237 samples.

Results

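The 38 Hox genes listed for this study were followed as a positional code in single cells of mouse skin at E14.5 (days of embryonic development). They were found in the count table by the Ensembl identifier of each symbol, all 38 of 38, among 55335 genes. The rule used symbols and no measured value. The table held 237 columns, each the RNA of 1 sorted cell, and 3 expression states were read from keratin and collagen genes: 79 columns were mesenchymal, 66 simple and 54 basal, while 39 met no rule. The mesenchymal rule asked for Col1a1 and Col3a1 at 100 CPM (counts per 1000000 counts of the column) or more. The simple rule asked for Krt8 and Krt18 at 100 CPM or more with Krt5 and Krt14 below 100 CPM, and the basal rule for Krt5 and Krt14 at 300 CPM or more with Krt8 below 100 CPM.

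The study set wild-type fetuses against fetuses that carried a Trp63 mutation, made by CRISPR-Cas9 editing of zygotes, all on a C57BL/6N background and carried by ICR mothers. Trp63 codes p63, which stratified epithelia need. The labels list 66 cells from 3 wild-type and 171 cells from 7 mutant embryos. Wild-type epidermis was lifted with dispase before trypsin, whereas mutant fetuses went into trypsin whole, and both were sorted for cells without CD45, TER119 and CD140a. The paper reports many dermal cells in the mutant sort. It describes a screen by quantitative PCR for Krt5 (wild type) or Krt8 (mutant), without clear Pdgfra. The labels still hold 70 mutant fibroblasts, so the columns cannot all be taken as selected this way. Column names matched labels for 16 cells, all of the wild-type embryo WT01: 11 basal-layer cells (WT-KCB), 1 intermediate-layer cell (WT-KCI) and 4 cells labelled K17 high (WT-KCP). The paper places WT-KCP cells in the periderm, and the 4 are called periderm cells here after it. All 4 also met the basal rule, with Krt8 below 100 CPM. The other 221 columns were used as 1 pool with no genotype, so state, genotype, embryo and preparation cannot be told apart. All 70 cells labelled fibroblast came from 1 mutant embryo, MU01, and no wild-type cell has that label. The mesenchymal columns may thus come largely from 1 embryo, though they were not matched to labels. With 1 embryo behind the 16 cells and no sample behind the pool, no test between groups was run and no p-value is given. Intervals are exact 95% intervals that cover counting error only. Those of summed CPM take reads as independent counts, and leave out RNA lost or amplified before sequencing and the spread between cells. No interval covers the spread between embryos, and cells are not replicates of a condition. The site on the body from which the skin was taken is not given in the sources used here.

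Hox proteins are homeodomain transcription factors that give cells an address along the head-to-tail axis. The genes lie in 4 clusters, each in the order in which they come on along the body: low paralog numbers reach furthest forward, high numbers mark the tail end and the tips of the limbs. Dermal fibroblasts are known to keep such a code through adult life and to steer the epidermis above them, and Hoxc13 is in addition a gene of hair and nail differentiation. The genes measured were 10 of HoxA (GRCm38, chr6:52162417-52260880), 10 of HoxB (chr11:96194316-96368256), 9 of HoxC (chr15:102921103-103036852) and 9 of HoxD (chr2:74668310-74765142).

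The homeobox is the stretch of 180 bases that codes the DNA-binding homeodomain. It is shown for 4 members that the results return to: Hoxa5 and Hoxc13 of the basal columns, and Hoxc8 and Hoxc9 of the mesenchymal columns. The sequences are given in coding direction from the GENCODE M21 transcripts, with the 18 bases that code the core of the DNA-recognition helix in capitals.
Hoxa5: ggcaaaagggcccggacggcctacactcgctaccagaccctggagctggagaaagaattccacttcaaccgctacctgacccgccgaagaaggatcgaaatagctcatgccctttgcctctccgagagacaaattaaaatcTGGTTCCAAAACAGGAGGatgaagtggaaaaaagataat
Hoxc8: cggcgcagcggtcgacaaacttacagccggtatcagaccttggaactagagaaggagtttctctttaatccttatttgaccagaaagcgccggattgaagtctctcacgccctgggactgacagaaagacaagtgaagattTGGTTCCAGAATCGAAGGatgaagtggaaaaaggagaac
Hoxc9: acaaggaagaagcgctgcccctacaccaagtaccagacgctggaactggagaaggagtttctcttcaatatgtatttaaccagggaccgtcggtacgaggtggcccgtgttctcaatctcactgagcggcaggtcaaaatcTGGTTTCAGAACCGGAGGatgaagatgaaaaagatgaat
Hoxc13: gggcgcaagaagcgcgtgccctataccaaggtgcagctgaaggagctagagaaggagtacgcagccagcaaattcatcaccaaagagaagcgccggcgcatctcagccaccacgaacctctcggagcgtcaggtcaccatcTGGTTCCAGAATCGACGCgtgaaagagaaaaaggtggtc
Hoxc8 and Hoxc9, neighbours in the HoxC cluster, shared 116 of 180 bases, or 64.4%. Hoxa5 shared 118 bases with Hoxc8 (65.6%) and 112 with Hoxc9 (62.2%). Hoxc13 stood furthest off, with 87 bases shared with Hoxa5 (48.3%), 96 with Hoxc8 (53.3%) and 102 with Hoxc9 (56.7%).

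Depth did not limit detection at the level used. Columns held 2702460 to 19197900 counts with a median of 6938980, and 3 counts, the limit set for a gene with no count, came to 1.11 CPM in the shallowest column and 0.156 CPM in the deepest. A Hox gene was taken as detected at 10 CPM. The states carried the markers of their names: Epcam, an epithelial adhesion gene, reached 10 CPM in 96.97% of simple and all basal columns against 3.80% of mesenchymal ones, and Twist2, a mesenchymal regulator, in 84.8% of mesenchymal and 0 simple or basal columns. Dcn, also in the list of 9 mesenchymal markers, was not specific: it reached 10 CPM in all mesenchymal, 84.8% of simple and 98.1% of basal columns. A share of 0 allows up to 4.56% of 79, 5.44% of 66 and 6.60% of 54 columns. Pdgfra, which codes CD140a, reached 10 CPM in 83.5% of mesenchymal columns although the sort was against CD140a. Col3a1 reached 10 CPM in 54.5% of simple columns, and 1 simple column held 466957 CPM of the globin genes Hba-a1 and Hbb-bs. One column met both the mesenchymal and the simple rule and is counted in both.

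The 16 matched cells of the wild-type embryo each held a short set of Hox genes, and basal-layer cells 7 and 8 held the same set (Hoxa5 and Hoxc4). The labels list 24 cells of this embryo, of which the other 8 were not matched to a column. The basal-layer cells held 2 to 8 Hox genes at 10 CPM or more with a median of 5, and the 4 periderm cells 6 to 10 with a median of 7.5. The intermediate-layer cell, with Krt1 at 13862 CPM and Krt10 at 15379 CPM, held 1, Hoxc4 at 12.6 CPM. The summed CPM of the Hox genes ran from 57.1 to 529 in the basal-layer cells (median 193) and from 262 to 515 in the periderm cells (median 395), and it was 13.1 in the intermediate-layer cell. The ranges of basal-layer and periderm cells overlapped in both measures. Of the 38 genes, 12 reached 10 CPM in 3 or more of the 16 cells, 5 in 1 or 2 cells (Hoxa3, Hoxa4, Hoxa6, Hoxb3 and Hoxb4) and 21 in none, 17 of which were at 0 throughout. No HoxD gene and no gene of paralog numbers 9 to 12 reached 10 CPM in these 16 cells.

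**Figure D1:**
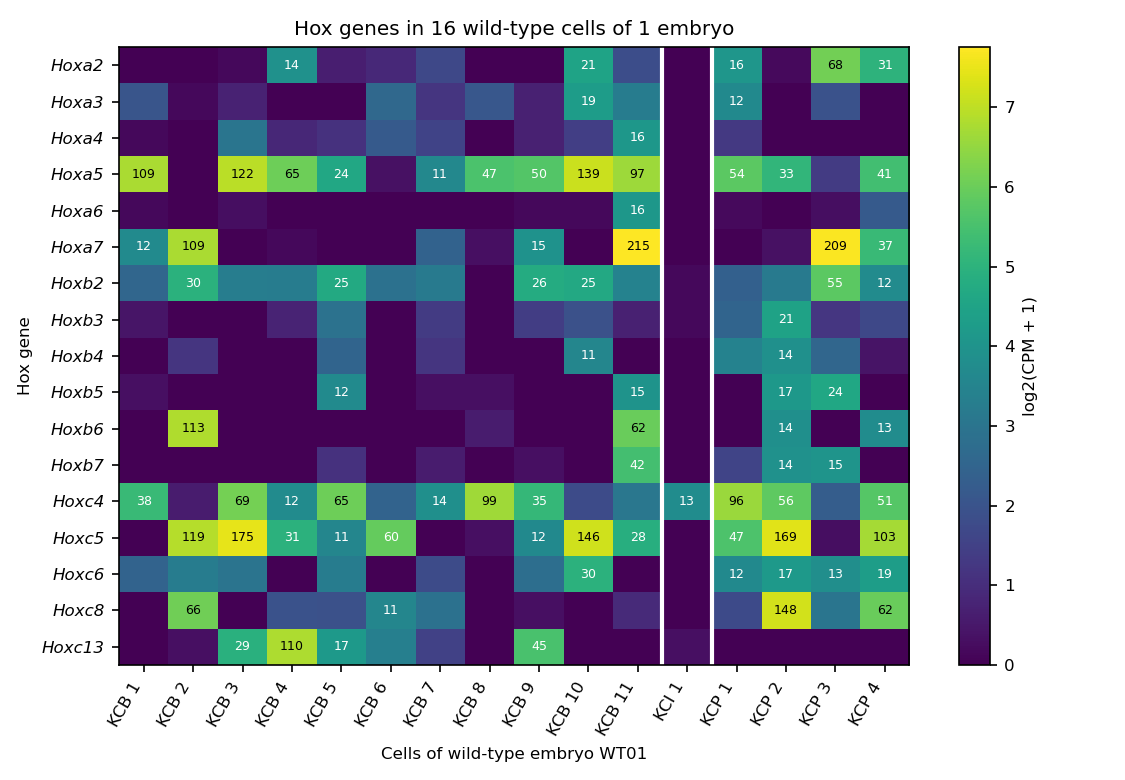
Level of the 17 Hox genes that reached 10 CPM in at least 1 of the 16 cells of wild-type embryo WT01, as log2(CPM + 1) by colour, with the CPM written in at 10 or more. Columns are the 11 basal-layer cells (KCB), the intermediate-layer cell (KCI) and the 4 periderm cells (KCP). Hoxa5, Hoxc4 and Hoxc5 are at 10 CPM or more in 12, 11 and 11 cells, while Hoxc13 reaches 10 CPM in 4 basal-layer cells.

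Among the anterior genes, Hoxa2, which patterns the hindbrain and the arch below it, was at or above 10 CPM in 2 basal-layer cells, at 14.1 and 21.5 CPM, and at 0 to 2.57 CPM in the other 9. In the periderm cells it stood at 15.9, 0.143, 67.7 and 31.04 CPM. The groups overlapped, because 1 periderm cell lay within the low range. Hoxb2, its paralog, reached 10 CPM in 4 of 11 basal-layer cells (30.1, 25.3, 26.5 and 24.6 CPM) and in 2 of 4 periderm cells (54.9 and 12.3 CPM). The periderm cell at 54.9 CPM stood apart from the next at 12.3 CPM.

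Of the paralog 4 and 5 genes, which mark the neck and upper trunk level, Hoxa5, Hoxc4 and Hoxc5 were on in 12, 11 and 11 of the 16 cells, whereas Hoxa4, Hoxb4 and Hoxb5 were on in 1, 2 and 4. Hoxa5 reached 10 CPM in 9 of 11 basal-layer cells, with a lowest value of 0, a median of 50.1 and a highest value of 139 CPM. Its levels in the periderm cells were 54.2, 33.1, 1.56 and 41.3 CPM, inside the basal-layer range. Hoxc5 was at 10 CPM or more in 8 basal-layer cells (0 to 175 CPM, median 28.04) and at 47.2, 169, 0.223 and 103 CPM in the periderm cells. Hoxc4 was at 10 CPM or more in 7 basal-layer cells (0.508 to 99.4 CPM, median 13.6) and at 96.2, 56.4, 3.90 and 51.1 CPM in the periderm cells. The periderm cell low in all of Hoxa5, Hoxc4 and Hoxc5 was the third, the cell that was highest for Hoxa2, Hoxa7 and Hoxb2. Hoxb5 was at 12.1 and 14.9 CPM in 2 basal-layer cells and at 16.7 and 23.6 CPM in 2 periderm cells, and below 1 CPM in the others.

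Trunk genes of paralog numbers 6 to 8 were on or off by cell. Hoxa7 was at 109 and 215 CPM in basal-layer cells 2 and 11, at 12.1 and 14.6 CPM in cells 1 and 9, and at 4.37 CPM or less in the rest. In the periderm cells it stood at 0, 0.285, 209 and 37.2 CPM. Hoxb6 was at 112.5 and 61.998 CPM in the same basal-layer cells 2 and 11 and at 13.7 and 12.6 CPM in periderm cells 2 and 4. Hoxb7 reached 10 CPM in basal-layer cell 11 (42.4 CPM) and in periderm cells 2 and 3 (14.3 and 15.1 CPM). Hoxc6 reached 10 CPM in 1 of 11 basal-layer cells (30.4 CPM) and in 4 of 4 periderm cells, at 11.96, 17.4, 13.1 and 18.8 CPM, the basal-layer cell lying above all of them. Hoxc8 was at 65.98 and 10.8 CPM in basal-layer cells 2 and 6, at 6.43 CPM or less in the others, and at 2.33, 148, 7.12 and 61.8 CPM in the periderm cells.

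Hoxc13 did not follow the others. It was at 29.1, 110, 17.1 and 44.7 CPM in basal-layer cells 3, 4, 5 and 9, at 9.11 CPM in cell 6 and at 1.80 CPM or less in the other 6. No count fell on it in the 4 periderm cells, against a limit of 0.103 CPM for 3 counts over the group, and 2 counts (0.243 CPM) fell on it in the intermediate-layer cell. In the 4 cells above 10 CPM the next highest paralog number was 5 in cells 3, 4 and 5 and 7 in cell 9, so the run of paralog numbers 9 to 12 was skipped.

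Summed over the cells of a group, 11 Hox genes reached 10 CPM in the periderm or the basal-layer cells. Of these, 2 were higher by 4-fold or more in the periderm cells, 18.2% of 11, against 5.56% of all 10605 genes that reached 10 CPM in either group. Hoxa2 was at 31.3 CPM (29.3 to 33.4) against 3.75 CPM (3.35 to 4.17), a difference of 2.77 on the log2(CPM + 1) scale. Hoxc8 was at 51.7 CPM (49.1 to 54.4) against 7.99 CPM (7.41 to 8.61), a difference of 2.55. Both rested on few cells: without periderm cell 2, or without periderm cell 3, 1 of the 2 was left, and without basal-layer cell 11 the count was 4. The median difference over the 11 genes was 0.66, against -0.0048 over all genes tested. In the other direction 1 gene passed 4-fold, 9.09% of 11 against a background of 6.8%. It was Hoxc13, at 20.1 CPM (19.1 to 21.03) in the basal-layer sum, and at least 195-fold lower in the periderm cells when these are set at 3 counts over the group. Basal-layer cell 4 gave 52.6% of those counts, and without it the sum was at 10.51 CPM and the bound at 102 fold. Hoxa2, Hoxc8 and Hoxc13 each passed 10 CPM in the higher sum alone, so their directions were fixed by the filter. Hoxa5 differed by -1.0002, Hoxa7 by 1.17, Hoxc4 by 0.56 and Hoxc5 by 0.47, all below 4-fold. Krt17, the gene in the label of the periderm cells, stood at 1715 to 3901 CPM there and at 4.37 to 613 CPM in the basal-layer cells.

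Over the 237 columns, 32 of the 38 Hox genes reached 10 CPM in at least 1 column. Hoxb13, Hoxc11 and Hoxd4 had counts but stayed below 10 CPM, and Hoxa13, Hoxd12 and Hoxd13, the genes of the limb tips and the tail end, had no count in any column. The number of Hox genes at 10 CPM or more was 24 in the mesenchymal, 28 in the simple and 23 in the basal columns when each gene needed 1 column. Every mesenchymal column (79 of 79, at least 95.4%) and every basal column (54 of 54, at least 93.4%) held a Hox gene at 10 CPM. Of the simple columns 52 of 66 did, 78.8% (66.98 to 87.9). The median column held 4 Hox genes in the mesenchymal (1 to 10), 3 in the simple (0 to 10) and 6 in the basal state (2 to 14).

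The clusters were used unequally. HoxC genes gave 59.6% of the Hox counts of the mesenchymal columns, 37.3% of the basal and 27.2% of the simple ones. HoxA genes gave 44.9% in the basal columns against 16.2% in the mesenchymal and 25.03% in the simple ones, and HoxB genes led the simple columns with 38.004%. HoxD genes gave 15.2% in the mesenchymal, 9.72% in the simple and 0.327% in the basal columns. A HoxD gene reached 10 CPM in 44 mesenchymal columns (55.7%, 44.1 to 66.9), 12 simple columns (18.2%, 9.76 to 29.6) and 2 basal columns (3.70%, 0.452 to 12.7).

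**Figure D2:**
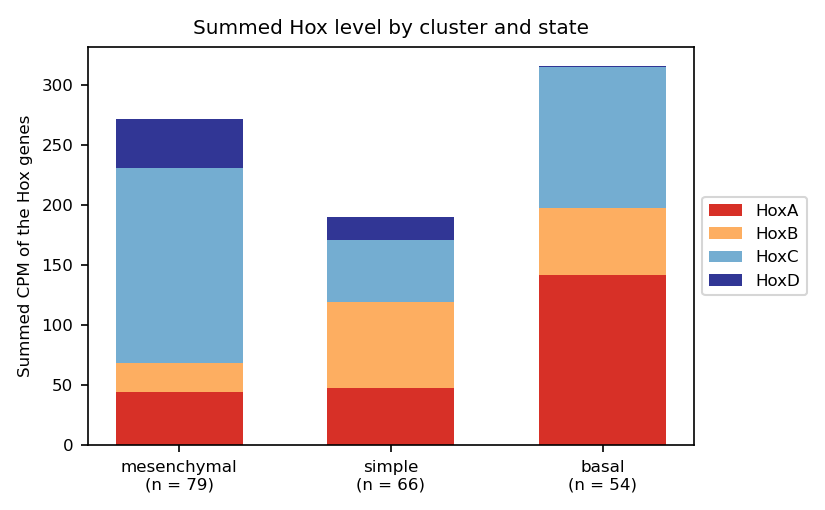
Summed CPM of the Hox genes of each cluster (colours) over all columns of a state, from 79 mesenchymal, 66 simple and 54 basal columns. The HoxC block leads in the mesenchymal columns at 162 CPM, the HoxA block in the basal columns at 142 CPM, and HoxD is at 1.03 CPM in the basal columns.

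Among the anterior genes Hoxb2 was spread over all states. It reached 10 CPM in 34.2% of mesenchymal (23.9 to 45.7), 15.2% of simple (7.51 to 26.1) and 27.8% of basal columns (16.5 to 41.6), and its summed level was 8.81, 13.6 and 12.3 CPM in that order. The intervals of its shares overlap. Hoxa2 was at 10 CPM or more in 6.33%, 9.09% and 29.6% of the columns, and Hoxa3 in 1.27%, 13.6% and 14.8%. Hoxd1 and Hoxd3 were different: they reached 10 CPM in 9 and 11 mesenchymal columns and in no simple or basal column, with 2 columns holding both. Hoxd3 shares 62.8% of its exon bases with other genes, Hoxd4 among them, so its counts are uncertain.

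Hoxa5 set the basal columns apart. It reached 10 CPM in 46 of 54 basal columns, 85.2% (72.9 to 93.4), in 10 of 66 simple columns, 15.2% (7.51 to 26.1), and in 2 of 79 mesenchymal columns, 2.53% (0.308 to 8.85). Its median was 38.8 CPM in the basal and 0 CPM in the other states, with highest values of 289, 175 and 27.2 CPM for basal, simple and mesenchymal columns. Its share was 80.0% in the 15 basal columns that were cells of WT01 (11 basal-layer and 4 periderm cells, all of which met the basal rule) and 87.2% in the other 39. Both mesenchymal columns above 10 CPM carried a muscle gene (Myod1, Myog or Actc1) at 10 CPM or more, and none of the 66 mesenchymal columns without one did. Hoxc5, on another chromosome but of the same paralog number, was by contrast shared: 56.96% of mesenchymal (45.3 to 68.1), 25.8% of simple (15.8 to 38.01) and 68.5% of basal columns (54.4 to 80.5). A gene of paralog number 5 was on in all 54 basal columns, in 62.03% of mesenchymal and in 34.8% of simple ones.

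Hoxc4 reached 10 CPM in 39.2% of mesenchymal (28.4 to 50.9), 31.8% of simple (20.9 to 44.4) and 72.2% of basal columns (58.4 to 83.5). Per length it was at 6.85, 5.83 and 10.9 CPM per kb of exon in the sums, where Hoxa5 was at 0.325, 5.52 and 29.002, and Hoxc5 at 18.6, 5.93 and 17.2. By that scale Hoxa5 was the leading of these 3 genes in the basal columns and the lowest in the others.

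Hoxa7 and Hoxb7 act in the trunk. Hoxa7 reached 10 CPM in 55.6% of basal (41.4 to 69.1), 27.8% of mesenchymal (18.3 to 39.1) and 19.7% of simple columns (10.9 to 31.3), with summed levels of 70.2, 12.6 and 11.8 CPM. Where it was on, its median level was 96.5 CPM in the basal and 35.4 CPM in the mesenchymal columns. Hoxb7 reached 10 CPM in 38.9% of basal (25.9 to 53.1), 25.8% of simple (15.8 to 38.01) and 8.86% of mesenchymal columns (3.64 to 17.4). Its summed level was highest in the simple columns, at 24.8 CPM against 17.6 in the basal and 2.37 CPM in the mesenchymal ones, and the intervals of its simple and basal shares overlap. Hoxb6 reached 10 CPM in 31.5% of basal, 10.6% of simple and 1.27% of mesenchymal columns. In the basal columns, 25 of the 30 with Hoxa7 (83.3%) also held Hoxa5, close to its 85.2% of the state, and 15 of the 21 with Hoxb7 (71.4%) also held Hoxa7, against 55.6% of the state. Hoxc6 went the other way, at 34.2% of mesenchymal, 9.09% of simple and 18.5% of basal columns. One simple column gave 82.3% of all its counts in that state, and without it the summed level of Hoxc6 in the simple columns was 1.62 in place of 9.06 CPM.

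Hoxc8, a gene of the thoracic level, was the most frequent Hox gene of the mesenchymal columns. It reached 10 CPM in 57 of 79, 72.2% (60.9 to 81.7), against 22.7% of simple (13.3 to 34.7) and 46.3% of basal columns (32.6 to 60.4). Its median was 34.4 CPM in the mesenchymal, 0 in the simple and 7.07 CPM in the basal columns. Hoxd8 was at 10 CPM or more in 40.5% of mesenchymal (29.6 to 52.1), 18.2% of simple (9.76 to 29.6) and 3.70% of basal columns (0.452 to 12.7), with summed levels of 19.5, 8.23 and 0.757 CPM. These paralogs therefore differed in their use: Hoxc8 was common in basal columns and Hoxd8 rare there.

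The promoters of Hoxa5, the gene of the basal columns, and Hoxd8, nearly missing from them, are given as the 250 bases before the RefSeq start (GRCm38.p6), 5′ to 3′, with the letters TAAT, the core that homeodomains bind, in capitals on either strand. Hoxa5 lies at chr6:52204588-52204837 on the minus strand and Hoxd8 at chr2:74704365-74704614 on the plus strand.
Hoxa5: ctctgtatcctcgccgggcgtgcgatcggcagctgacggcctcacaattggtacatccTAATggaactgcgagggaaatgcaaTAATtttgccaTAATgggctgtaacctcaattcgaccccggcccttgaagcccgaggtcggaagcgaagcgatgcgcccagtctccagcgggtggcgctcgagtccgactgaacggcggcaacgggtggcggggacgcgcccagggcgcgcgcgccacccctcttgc
Hoxd8: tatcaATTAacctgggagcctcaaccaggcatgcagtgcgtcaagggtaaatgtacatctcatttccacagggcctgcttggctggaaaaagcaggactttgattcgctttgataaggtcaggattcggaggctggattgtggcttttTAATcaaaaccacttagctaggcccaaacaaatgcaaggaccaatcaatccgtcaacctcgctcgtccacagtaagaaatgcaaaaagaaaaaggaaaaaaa
The Hoxa5 stretch was 63.6% G and C and held TAAT 3 times, and the Hoxd8 stretch was 44.4% and held it 2 times, while the median over all promoters was 52.4%. TAAT is short and stood in 54.9% of all 32851 promoters. Neither held the longer letters searched on both strands: TGATTNAT, a joint site of Pbx and Hox proteins (2.82% of all promoters), TGACAG, a Meis site (15.9%), or TAATTA (4.84%), which contains TAAT. Promoters were matched for 22 of the 38 genes.

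**Figure D3:**
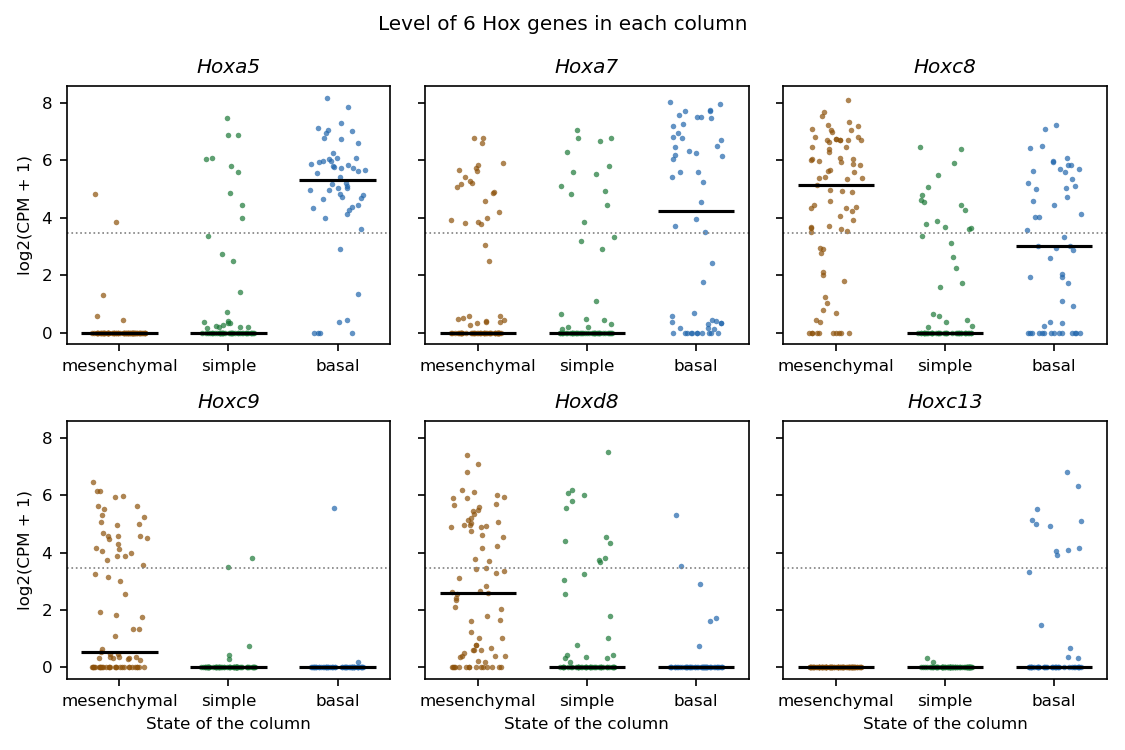
Level of 6 Hox genes in each column, as log2(CPM + 1), by state (79 mesenchymal, 66 simple and 54 basal columns). Points are columns, black bars are medians and the dotted line is 10 CPM. Hoxa5 is high in the basal columns, Hoxc8 and Hoxd8 in many mesenchymal columns, and the 11 columns above the line for Hoxc13 are all basal.

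Hoxc9 and Hoxc10 were found mainly in mesenchymal columns. Hoxc9 reached 10 CPM in 28 of 79 mesenchymal columns, 35.4% (25.001 to 47.01), in 2 of 66 simple columns, 3.03% (0.369 to 10.52), and in 1 of 54 basal columns, 1.85% (0.0469 to 9.89). The summed levels were 12.7, 0.281 and 0.638 CPM. Hoxc10 was at 10 CPM or more in 20.3% of mesenchymal columns, 1 simple and 0 basal columns, and it had no count in the basal ones. Hoxd9 stood at 24.1%, 7.58% and 0%, Hoxa9 at 17.7%, 4.55% and 1.85%, Hoxa10 at 11.4%, 4.55% and 0%, and Hoxb9 at 11.4%, 7.58% and 3.70%. By their paralog numbers these posterior genes belong towards the tail end of the body axis. Their summed levels did not all follow the shares: Hoxd9 was at 8.002 CPM in the mesenchymal and 8.43 CPM in the simple columns, and Hoxa10 at 5.86 and 5.07 CPM. The simple sums rested on few columns. For Hoxd9, 1 column gave 53.8% of the simple counts, and without it the level was 3.99 CPM. Hoxa10 was on in 3 simple columns, and its level without the highest was 3.14 CPM. The column that met both rules entered both sums. Hoxa11 and Hoxd10 were rare in both states, at 2.53% and 1.27% of mesenchymal and 3.03% and 1.52% of simple columns, and Hoxc12 and Hoxd11 reached 10 CPM in 1 simple column each.

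Within the mesenchymal columns some pairs of posterior genes came together more often than their shares of the state, and others did not. Of the 28 columns with Hoxc9, 22 (78.6%) also held Hoxc8, close to its 72.2% of that state. Of the 16 columns with Hoxc10, 12 (75.0%) held Hoxc9, present in 35.4%, and 11 (68.8%) held Hoxc8. Hoxa10 came with Hoxa9 in 6 of its 9 columns, against 17.7% of the state, and Hoxb9 with Hoxc9 in 8 of its 9. Hoxd9 and Hoxa9 shared 4 columns of 19 and 14. Along Hoxc4, Hoxc5, Hoxc6, Hoxc8, Hoxc9 and Hoxc10, 68 mesenchymal columns held 2 or more of the genes, in 37 of them (54.4%) as an unbroken run and in 31 with a gap. The unbroken share was 50% in the basal, 42.1% in the simple and 69.2% in the columns of no state, so it was not particular to the mesenchymal columns.

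A single column carried much of the most posterior signal. It met both the mesenchymal and the simple rule, with Col3a1 at 3542 CPM, Krt8 at 169 and Krt18 at 192 CPM, and with Epcam at 2.52 CPM. It held Hoxa9 at 93.6, Hoxa10 at 117, Hoxa11 at 228, Hoxd9 at 138 and Hoxd10 at 80.6 CPM. It gave 86.7% of the Hoxa11 counts and 100% of the Hoxd10 counts of the mesenchymal columns. The 13 mesenchymal columns with a muscle gene differed from the other 66 in opposite ways for different posterior genes. Hoxa9 and Hoxa10 each reached 10 CPM in 46.2% of the 13, against 12.1% and 4.55% of the 66. Hoxb9, Hoxc9, Hoxc10 and Hoxd9 went the other way, at 0%, 23.1%, 15.4% and 15.4% of the 13 against 13.6%, 37.9%, 21.2% and 25.8% of the 66. A gene of paralog numbers 9 to 13 was on in 84.6% of the former and 59.1% of the latter.

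**Figure D4:**
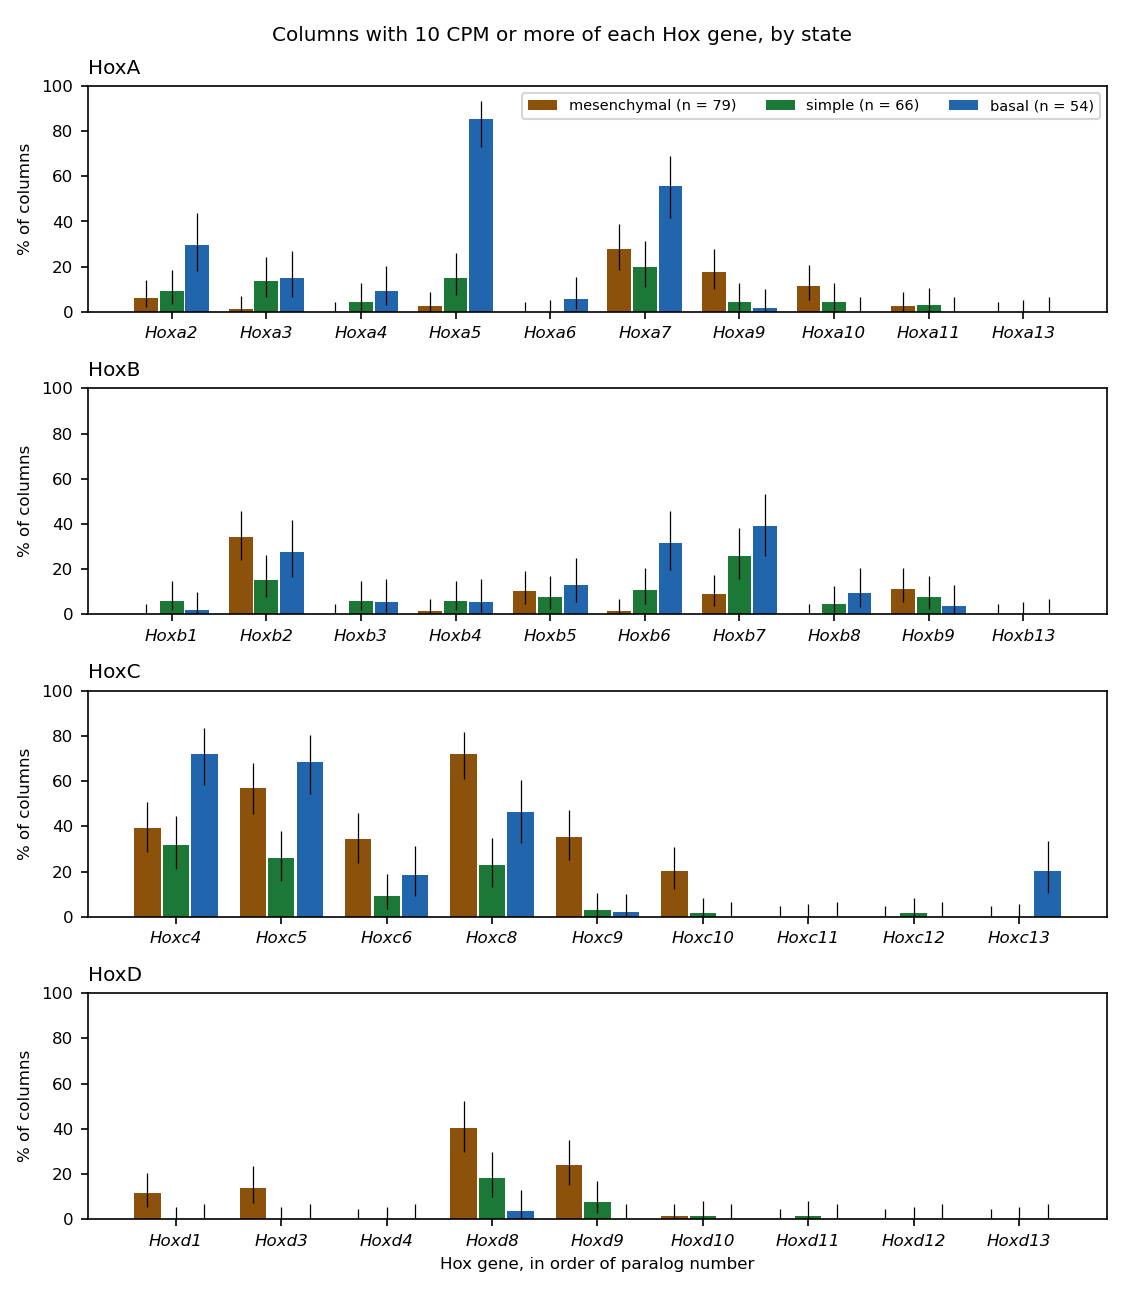
Share of columns with 10 CPM or more of each Hox gene, in order of paralog number, for the mesenchymal (n = 79), simple (n = 66) and basal (n = 54) columns. Error bars are exact 95% binomial intervals for counting error. The basal share is highest for Hoxa5 (85.2%), the mesenchymal share for Hoxc8 (72.2%), and Hoxc13 is seen at 10 CPM in the basal columns alone (20.4%).

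The highest paralog number at 10 CPM summed up these codes. It was 8 in 26, 9 in 29 and 10 in 19 of the 79 mesenchymal columns, with a median of 9. In the 54 basal columns it was 5 in 6, 7 in 12, 8 in 20 and 13 in 11, with a median of 8. The 52 simple columns that held a Hox gene spread from 2 to 12 with a median of 7. A gene of paralog numbers 9 to 13 was on in 63.3% of mesenchymal (51.7 to 73.9), 16.7% of simple (8.62 to 27.9) and 24.1% of basal columns (13.5 to 37.6). Without Hoxc13 the basal share was 3.70% (0.452 to 12.7) and the other shares did not change.

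**Figure D5:**
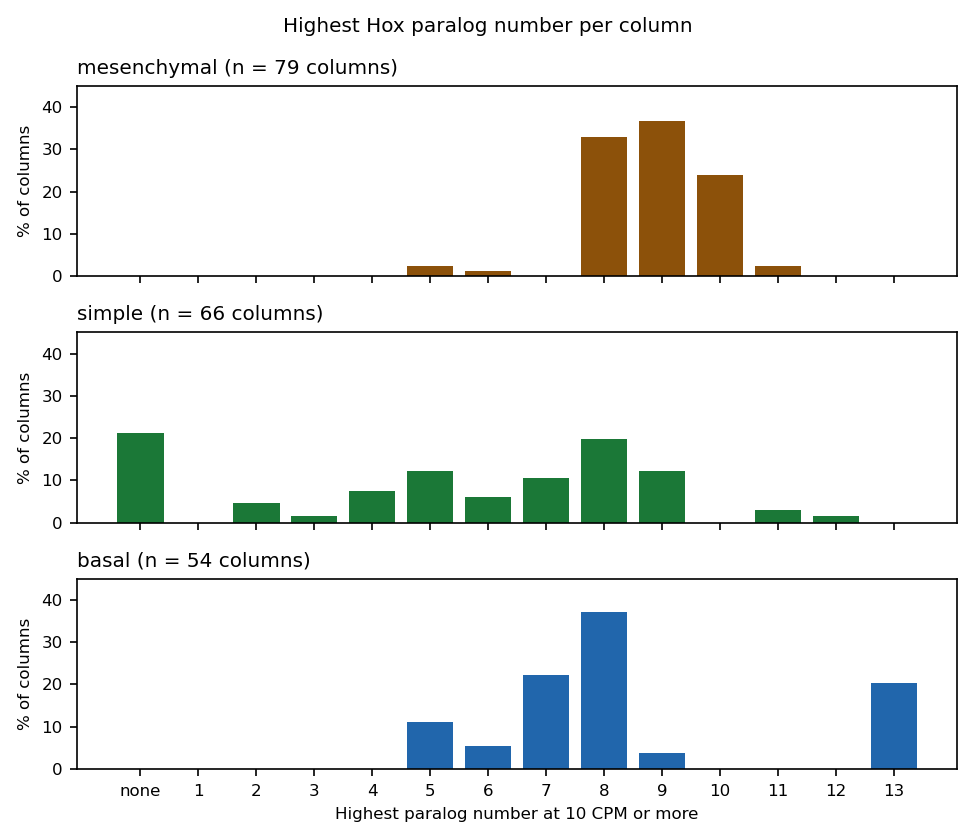
Share of columns by their highest paralog number at 10 CPM or more, for the mesenchymal (n = 79), simple (n = 66) and basal (n = 54) columns. The mesenchymal columns gather at 8 to 10, the simple columns spread over 2 to 12 with 14 columns at none, and the basal columns end at 9 apart from 11 columns at 13, which are those with Hoxc13.

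Hoxc13 reached 10 CPM in 11 columns, all of them basal, 20.4% of that state (10.6 to 33.5), from 13.995 to 110 CPM with a median of 30.98. Of these, 4 were the WT01 basal-layer cells above and 7 were not matched to a sample. None of the 11 held a gene of paralog numbers 9 to 12 at 10 CPM, and their next highest paralog number lay between 5 and 8. All 11 held Hoxa5 and 9 held Hoxc4. Hoxc8 was on in 36.4% of them against 48.8% of the other 43 basal columns, and Hoxa7 in 36.4% against 60.5%. Outside the basal columns the highest value of Hoxc13 was 8.63 CPM.

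Set against the basal columns, 12 Hox genes reached 10 CPM in the sum of the mesenchymal or the basal columns. Of these, 4 (33.3%) were higher in the mesenchymal columns by 4-fold or more, where 9.64% of 10970 genes were. They were Hoxa9 (3.81 on the log2(CPM + 1) scale), Hoxd8 (3.54), Hoxc9 (3.06) and Hoxc10 (3.56), the last with no count in the basal columns. Another 4 (33.3%) were lower, against 6.34% of all genes: Hoxa5 by -5.11, Hoxb6 by -3.44, Hoxb7 by -2.47 and Hoxa7 by -2.39. Hoxb2 (-0.44), Hoxc4 (-0.64), Hoxc5 (0.11) and Hoxc8 (1.14) stayed within 4-fold. The median over the 12 was -0.17, against -0.26 over all genes. Hoxa9, Hoxc9, Hoxc10 and Hoxd8 passed 10 CPM through the mesenchymal sum alone, and Hoxa5, Hoxb6 and Hoxb7 through the basal sum alone. Their directions were therefore fixed by the filter. Hoxa7 passed in both sums, at 12.6 CPM in the mesenchymal and 70.2 CPM in the basal columns. It shares 20.4% of its exon bases with Hoxaas3, a non-coding RNA of the opposite strand, so its counts are uncertain. Of the 4 that were higher, 2 were left when genes that share exon bases with another gene were set aside.

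Between the simple and the basal columns, 9 Hox genes passed 10 CPM and none was higher in the simple columns by 4-fold, against 5.77% of all 10762 genes. There were 2 lower genes (22.2%, against 3.58%), Hoxa5 by -2.29 and Hoxa7 by -2.47. Hoxb5 came near the limit at 1.98, but 1 column gave 76.0% of its counts in the simple state, and without it the level was 4.05 in place of 16.6 CPM. The median over the 9 was -1.25, against 0.04 over all genes.

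Between the simple and the mesenchymal columns, 12 Hox genes passed 10 CPM. Of them 3 were higher in the simple columns, against 9.16% of all 11237 genes: Hoxb7 (2.94), Hoxa5 (2.82) and Hoxb5 (2.16). Without the single column that gave 76.0% of its simple counts, Hoxb5 was at 4.05 CPM in the simple and 2.92 CPM in the mesenchymal columns, below the 10 CPM asked for. Another 3 were lower, against 8.85%: Hoxc9 (-3.42), Hoxc10 (-2.91) and Hoxc8 (-2.59). Each of these called genes passed 10 CPM in the higher sum alone, so its direction was fixed by the filter. The median was -0.68 over the 12 and 0.24 over all genes.

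The simple columns differed with their collagen genes. Of the 66, 37 had Col1a1 or Col3a1 at 10 CPM or more and 29 had not. A gene of paralog numbers 9 to 13 was on in 11 of the 37 (29.7%) and in 0 of the 29, which allows up to 11.9%. Hoxd9 was on in 13.5% and 0%, Hoxb9 in 13.5% and 0%, Hoxc8 in 29.7% and 13.8%, and Hoxc5 in 35.1% and 13.8%. Hoxc4 did not show this, at 29.7% and 34.5%. The median number of Hox genes was 3 and 1. With the 37 columns left out, an alternative chosen after seeing the data, 10 Hox genes passed 10 CPM in the simple or the basal sum. Of these, 5 were lower in the simple than in the basal columns by 4-fold, against 6.13% of all genes, and 1 was higher (Hoxb5), against 6.39%. Hoxb5 reached 10 CPM in 2 of the 29 columns, and its highest value was 757 CPM beside a sum of 27.1 CPM. In the same setting 5 of 12 were lower than in the mesenchymal columns, against 11.2% of all genes. The genes called in this setting as lower, and Hoxb5, each passed 10 CPM in the higher sum alone, so the filter fixed their directions. Of the 29 columns without collagen, 13 had a globin gene at 10 CPM or more, against 3 of the 37. Whether RNA of other cells had a part in these codes was not tested.

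There were 14 simple columns with no Hox gene at 10 CPM, 4 of them with no Hox count at all, and their summed Hox level was at most 6.31 CPM. Their depth was 2874250 to 17000200 counts with a median of 6723950, against a median of 7494090 in the 52 with a Hox gene. Dlx5, a regulator of the face and jaw, was on in 5 of the 14 and in 17 of the 52, and Trp63 in 9 of the 14 and 40 of the 52. Among all simple columns Dlx5 reached 10 CPM in 33.3%, against 11.1% of basal and 1.27% of mesenchymal columns. The other genes of the head and face list reached 10 CPM in under 10% of the columns of each state, but for Alx4 in 10.1% of the mesenchymal ones. Of that list of 15, Dlx5 alone passed 10 CPM in a state sum, and it was higher in the simple than in the mesenchymal columns by 3.17. It passed through the simple sum alone, so its direction was fixed by the filter.

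Of 14 regulators that mark the trunk and limbs, 8 reached 10 CPM in the mesenchymal or basal sums, all of them through the mesenchymal columns, so that their direction was fixed by the filter. Tbx15, a gene of the dorsal trunk dermis, was on in 91.1% of mesenchymal columns and in no simple or basal one, at 159.05 CPM in the sum. Tbx18 followed in 46.8%, Emx2 in 36.7%, Shox2 in 34.2%, En1 in 25.3% and Sim1 in 21.5%, with 1 simple column (Emx2) and no basal column above 10 CPM. Tbx3 was on in 30.4% of mesenchymal, 25.8% of simple and 0 basal columns. Of the 72 columns with Tbx15, 55 held Hoxc8, a gene on in 72.2% of all mesenchymal columns, and 28 held Hoxc9, on in 35.4%.

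Of the 11 cofactors of the TALE family, which bind DNA together with Hox proteins, 8 passed 10 CPM in the mesenchymal or basal sums. Of these, 1 was higher in the mesenchymal columns by 4-fold, where 9.64% of all genes were. It was Meis1, at 239 CPM in the mesenchymal, 19.1 in the simple and 17.7 CPM in the basal columns, and on in 96.2%, 19.7% and 33.3% of them. Pbx3 was higher in the simple than in the mesenchymal columns, at 55.8 against 12.4 CPM. It was 1 of 9 cofactors past 10 CPM there, beside 9.16% of all genes. Meis2 was on in 73.4% to 80.3% of the columns of each state. In WT01, Pknox2 was at 39.99 CPM in the periderm sum with no count in the basal-layer cells, and Meis3 at 0.137 against 37.2 CPM. These were 1 higher and 1 lower of 9 cofactors past 10 CPM, beside 5.56% and 6.8% of all genes. Both passed in the higher sum alone, so the filter fixed their directions, and the periderm sum holds 4 cells.

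Non-coding RNAs of the clusters differed in their spread. Hotairm1, which lies at the anterior end of HoxA, was on in 46.3% of basal and 27.3% of simple columns and in 0 of 79 mesenchymal ones. Hoxaas2 and Hoxaas3 were on in 24.1% and 29.6% of basal, 28.8% and 28.8% of simple, and 3.80% and 6.33% of mesenchymal columns. Hoxd3os1, in the HoxD cluster, was on in 17.7%, 10.6% and 0% of mesenchymal, simple and basal columns. Hotair and Hottip had no count in the 3 states. Hotairm1 passed 4-fold between mesenchymal and basal columns as 1 of 3 such RNAs past 10 CPM, and it was lower, beside 6.34% of all genes. It passed 10 CPM in the basal sum alone, so its direction was fixed by the filter.

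Skap2, the neighbour of the HoxA cluster on its anterior side and no Hox gene, was on in 96.3% of basal, 86.4% of simple and 17.7% of mesenchymal columns, at 195, 244 and 9.13 CPM in the sums. It was 1 of 4 cluster neighbours past 10 CPM, and the other 3 (Mtx2, Lnpk and Calcoco1) stayed within 4-fold between the mesenchymal and basal columns. In that comparison 6.34% of all genes were lower. Skap2 passed 10 CPM in the basal sum alone, so its direction was fixed by the filter. Evx1 and Evx2, at the posterior ends of HoxA and HoxD, had no count in the 3 states. Of 20 chromatin regulators, most of the Polycomb and Trithorax groups that hold Hox genes off or on, 18 passed 10 CPM in the mesenchymal or basal sums. None differed by 4-fold, where 9.64% of all genes were higher and 6.34% lower. Their median was -0.45 beside the -0.26 of all genes. Between the simple and the mesenchymal columns 3 of 18 were higher, Cbx7, Phc1 and Kmt2b, beside 9.16% of all genes.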

How the data were processed

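Single cells were sorted, amplified with SMART-Seq HT and made into libraries with Nextera XT. The submitters' processing notes name Trimmomatic, HISAT2, featureCounts, DESeq2 1.36.0, mm10 and Ensembl release 97. The authors deposited estimated counts per gene, not normalized, and 23.2% of the values above 0 have a fraction; how reads with several matches were treated, and whether strand was used, is not given in the sources used here. The counts were rounded to whole numbers and divided by the column total (2702460 to 19197900) to give CPM. Exon lengths and overlaps came from GENCODE M21. Of the 38 genes, 15 share exon bases with another gene, whose reads cannot be told apart.

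Column names matched the labels of 16 cells. The other 221 columns entered as 1 pool, and 0 columns were left unused. Summed levels are counts over totals. Differences are on the log2(CPM + 1) scale for genes at 10 CPM or more in either group, with 4-fold as the limit. Intervals are exact (Poisson for counts, Clopper-Pearson for shares). Doublets were not called. No test between groups was run, since each group is 1 sample.

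The members, lists and states were chosen with earlier results of these data known. Values per cell were given for Hox genes at 10 CPM or more in 3 or more of the 16 cells, and by state for the 10 with the largest share of columns in any state (Hoxa5, Hoxc4, Hoxc8, Hoxc5, Hoxa7, Hoxd8, Hoxb7, Hoxc9, Hoxb2 and Hoxc6). Members of the other lists were named from 10% of the columns of a state. All other genes named were picked after their values were seen. Alternatives changed the detection level, scaling, filters, marker limits and the cells left out. The counting step was tested on simulated data. Values were computed in Python 3.11.15 (pandas 2.3.3, numpy 2.4.6), intervals with scipy 1.17.1 and plots with matplotlib 3.10.9.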

Additional observations from a re-analysis of the deposited data

Results flagged for a closer look

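Among the 12 Hox genes compared in the 4 periderm cells (label K17 high) of WT01, 1 had a cell far from the others. Hoxb2 stood at 54.9 CPM in 1 cell with the next at 12.3 CPM, a gap of 0.841 of the whole range, above the limit for 4 cells. For normally spread values chance passes that limit in about 1 of 20 groups. The CPM of 4 cells are skewed and 12 genes were compared, so that rate need not hold here. The same cell was the highest of the 4 for Hoxa2 and Hoxa7.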

How the results depend on the processing

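Under 35 alternatives 277 values were recomputed, of which 239 stayed within the limits set and 38 moved. None is a test, and the cause of a move was not tested unless the alternative itself sets it. The detection level sets the counts: in the sums 17 (basal-layer), 15 (periderm), 21 (mesenchymal), 23 (simple) and 19 (basal) Hox genes reached 1 CPM, against 7, 9, 8, 7 and 8 at 10 CPM and 2, 3, 2, 0 and 3 at 50 CPM. At 50 CPM the shares of columns with a Hox gene were 74.7% (mesenchymal), 57.6% (simple) and 90.7% (basal), and the median highest paralog number was 8, 6 and 7, while at 1 CPM it was 8 in the simple columns. With no filter on low values, 10 Hox genes were higher by 4-fold in mesenchymal than basal columns, 5 in simple than basal and 5 in simple than mesenchymal. At 2-fold, 1 gene was higher and 5 lower in simple than basal columns, 6 lower in simple than mesenchymal columns, and 5 higher and 3 lower in periderm than basal-layer cells. With a pseudocount of 0.1 CPM, with marker limits divided by 2, or without the 6 basal columns with Krt1 or Krt10 at 100 CPM, 1 gene was higher in simple than basal columns. The shares of all genes called under these alternatives are not given here. These counts of Hox genes therefore cannot be told from a general change in the number of calls.

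The sets of columns left out and the limit to genes with no shared exon were chosen after seeing the data. Without the 37 simple columns with collagen, 1 gene was higher and 5 lower in simple than basal columns, 5 were lower than in mesenchymal columns, and the median paralog number was 6. The higher gene, Hoxb5, reached 10 CPM in 2 of the 29 columns left. With genes that share no exon, 2 were higher in mesenchymal than basal columns, 1 lower in simple than basal columns and 1 higher in periderm cells. Leaving out each WT01 cell in turn gave 1 to 4 genes higher in periderm cells. Shares over all genes are given above for the columns without collagen alone, so the other counts of this paragraph stand without them. No paired analysis was possible because the 16 cells come from 1 embryo and their numbers mark no pairs.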
